A study of Mus musculus with 6 samples.

Results

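The genes of the mitochondrial chromosome were examined in bulk RNA sequencing of 6 mouse hearts. The annotation of this chromosome lists 37 genes, and 35 of them, 13 protein genes and 22 transfer RNA genes, had a row among the 49315 genes of the count table. Membership followed from the place on the chromosome and from no measured value. The 2 ribosomal RNA genes were not analysed here.

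The hearts came from C57BL/6 mice, 3 of them with the genotype conditional knock-in and the Txnip status C247S mutant and 3 of them wild-type with the status Txnip WT. Txnip encodes an arrestin-like protein that holds reduced thioredoxin through a cysteine, and the C247S mutation puts a serine in the place of that cysteine. The labels name MerCreMer, a Cre recombinase made responsive to tamoxifen, and treatment with 4-hydroxytamoxifen for both genotypes, without settling whether the wild-type mice carried the recombinase. Neither the promoter of the recombinase nor the age, sex, litter or batch of the mice is given in these labels. The samples are hearts of separate mice, so p-values measure the spread between mice.

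The mitochondrial chromosome encodes core subunits of respiratory complexes I, III, IV and V together with the ribosomal and transfer RNAs needed to translate them inside the organelle. Both strands are transcribed as long polycistronic RNAs by the polymerase Polrmt, and transfer RNAs that lie between the other genes are cut out to release the messages. Heart muscle is among the tissues richest in mitochondria. Fragments of mitochondrial DNA have also been copied into nuclear chromosomes during evolution, and some of these copies still match the original closely.

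Library totals ran from 14146048 to 15620476 counts, so that 3 counts, taken as the floor of detection in a library, equalled 0.192 to 0.212 CPM, the counts per 1000000 counts of a library. Txnip itself had 438, 391 and 429 CPM in knock-in hearts and 724, 791 and 741 CPM in wild-type hearts (log2 fold change −0.84 ± 0.09 SE, edgeR quasi-likelihood adjusted p = 0.00379), and a count per gene cannot show the point mutation. Called, here and below, means a Benjamini-Hochberg adjusted p under 0.05 over all genes tested with edgeR. The cardiomyocyte markers summed to 73286 to 78308 CPM in knock-in hearts and 66683 to 68831 CPM in wild-type hearts. All 8 were tested, 7 had positive log2 fold changes, and 1, Myl2, was called higher. Tnnt2 also had knock-in values all above wild-type values and was not called (log2 fold change 0.25 ± 0.08 SE, edgeR adjusted p = 0.322). Without Myl2 the other 7 summed to 57486 to 63153 CPM in knock-in hearts and 55564 to 58330.2 CPM in wild-type hearts, which overlap. The red blood cell markers summed to 1447 to 1916 CPM in knock-in hearts and 463 to 635 CPM in wild-type hearts, and all 5 were called higher. Macrophages and smooth muscle are minor cell types of the heart by volume. The macrophage markers summed to 234 to 248 CPM in knock-in hearts and 308 to 355 CPM in wild-type hearts, with Lyz2 called lower and all 7 log2 fold changes negative. The smooth muscle markers summed to 113 to 129 CPM in knock-in hearts and 213 to 244 CPM in wild-type hearts, with Acta2 called lower among 4. Without Acta2 the other 3 overlapped, at 35.1 to 40.3 CPM in knock-in hearts and 31.6 to 37.6 CPM in wild-type hearts. Sums of endothelial and fibroblast markers overlapped between the genotypes, liver markers summed to at most 1.05 CPM with 1 of 3 at 0 in every heart, and skeletal muscle markers to at most 1.76 CPM. The part of these marker differences in the values of the mitochondrial genes was not tested, and in bulk tissue fewer cells of a type and less RNA per cell cannot be told apart.

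Mitochondrial genes took 22.9%, 24.1% and 23.6% of all counts in the 3 knock-in hearts and 24.3%, 23.4% and 27.95% in the 3 wild-type hearts. The groups overlapped, at 23.5 ± 0.609% in knock-in and 25.2 ± 2.42% in wild-type hearts (SD, n = 3 each), with wild-type replicate 3 standing above all other hearts. Within this nearly even total, 21 of the 24 members with enough counts to be tested had a negative log2 fold change (knock-in over wild-type), beside 51.7% of all 12777 tested genes. The median over the members was −0.73, and over all tested genes −0.01. At an unadjusted p under 0.05, 12 of the 24 were lower and 0 higher in knock-in hearts, where 5.23% of all tested genes were lower and 4.74% higher, 9.97% in all. All 3 knock-in values lay below all 3 wild-type values in 10 of the 24, beside 7.99% of all tested genes, and the opposite held for 0 of the 24, beside 8.12% of all tested genes.

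Of the 24 tested members, 2 were called lower and 0 higher. They were mt-Atp6, a subunit of the ATP synthase, and mt-Tp, the transfer RNA for proline. Of all tested genes 0.297% were called, 0.188% lower and 0.11% higher. The calls depended on the hearts used. Without knock-in replicate 2 there were 9 called members, without wild-type replicate 3 there were 2 (mt-Atp6 and mt-Co3), and without any 1 of the 4 other hearts there were 0. Members share long precursor transcripts and the same libraries, so they are not independent observations of the genotype.

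**Figure D1:**
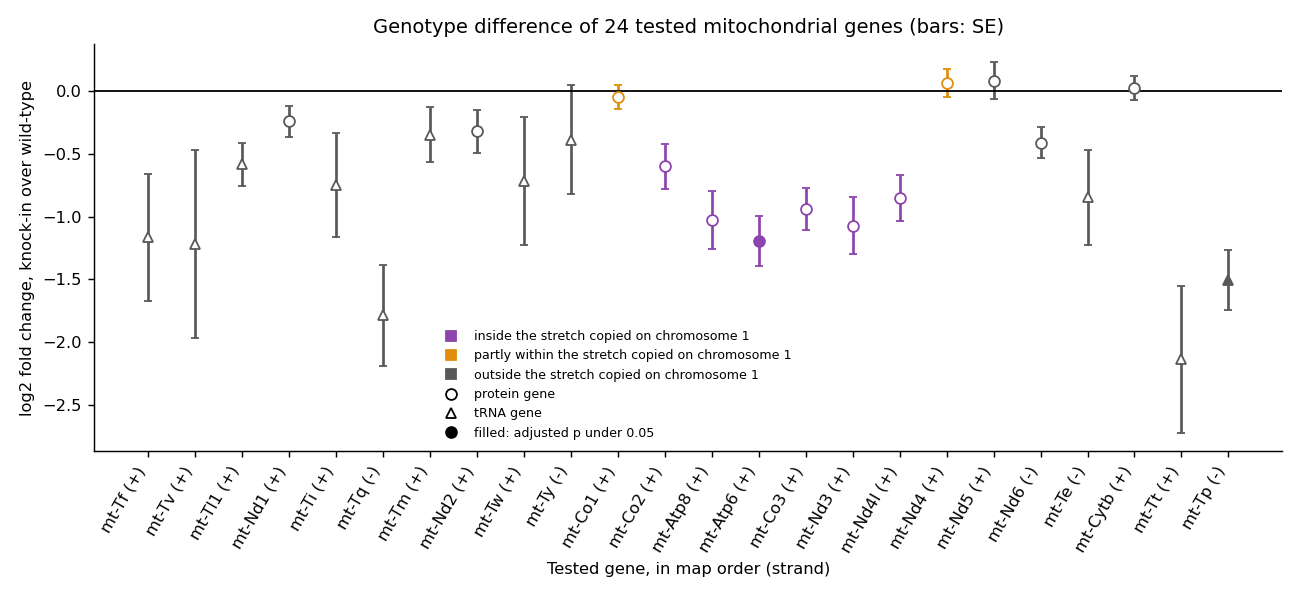
Log2 fold change (knock-in over wild-type) of the 24 tested mitochondrial genes in map order, with bars for the SE from edgeR; circles are protein genes, triangles transfer RNA genes, filled symbols the 2 called members, and + or - the coding strand. The 6 protein genes inside the stretch copied on chromosome 1 lie between −1.20 and −0.60, and the other 7 protein genes between −0.41 and 0.08.

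Levels differed between members by several orders of magnitude. Per kilobase of gene, mt-Co1, the catalytic subunit of complex IV, was the highest at 75234 CPM per kb in knock-in hearts and 77718 CPM per kb in wild-type hearts. It took 47.3% to 49.5% of all mitochondrial counts in each heart. Next came mt-Cytb, the cytochrome b of complex III, at 41809 CPM per kb in knock-in hearts and 41132 CPM per kb in wild-type hearts, and then 4 subunits of complex I. These were mt-Nd1, mt-Nd2, mt-Nd4 and mt-Nd5, at 25855, 15033, 13405 and 8295 CPM per kb in knock-in hearts and at 30568, 18799, 12822 and 7851 CPM per kb in wild-type hearts. The complex I subunit mt-Nd6, the only protein gene on the minus strand, had 536 CPM per kb in knock-in and 713 CPM per kb in wild-type hearts.

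The remaining 6 protein genes were far lower on the same scale, although they lie between these abundant genes on the map. Their mean levels ran from 12.1 CPM per kb in knock-in and 25.5 CPM per kb in wild-type hearts for mt-Nd3 to 79.4 CPM per kb in knock-in and 152 CPM per kb in wild-type hearts for mt-Co3. They are mt-Co2 and mt-Co3 of complex IV, mt-Atp8 and mt-Atp6 of complex V, and mt-Nd3 and mt-Nd4l of complex I. They lie next to each other, separated only by transfer RNA genes, between mt-Co1 and mt-Nd4.

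**Figure D2:**
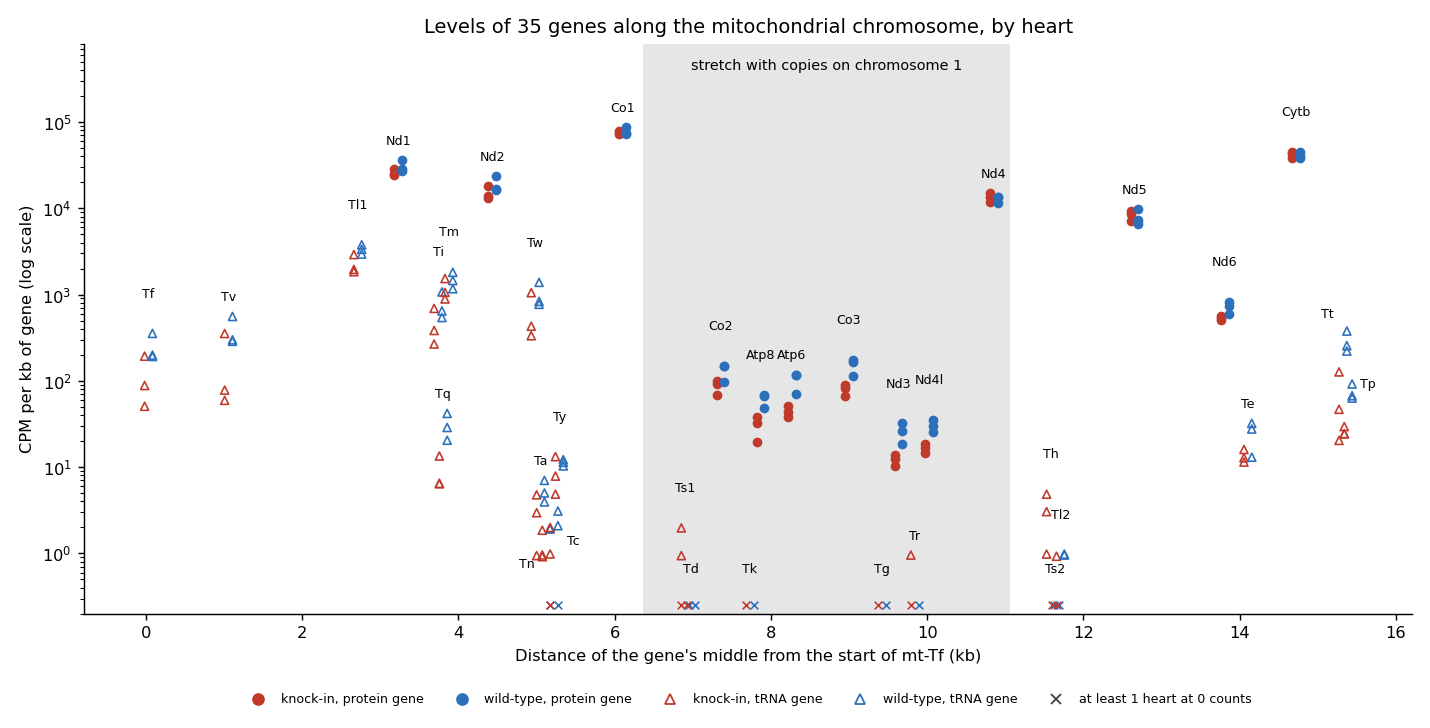
Level of each of the 35 mitochondrial genes in every heart (CPM per kb of gene, log scale) against the position of its middle in kb from the start of mt-Tf; knock-in symbols are drawn left of wild-type ones, circles are protein genes, triangles transfer RNA genes, and crosses mark genes with at least 1 heart at 0 counts. The grey band is the stretch with annotated copies on chromosome 1, inside which 6 protein genes stay at or below 152 CPM per kb on average while mt-Co1, at its edge, reaches 77718.

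These genes of low counts lie among matches to annotated nuclear pseudogenes. Of the annotated nuclear genes, 7 had at least 50% of the 31-base words of their transcripts in mitochondrial genes. All are pseudogenes on the minus strand of chromosome 1, within chr1:24611535-24616197, and their matches lie between the ends of chrM:6381-11042 (GRCm38), called the copied stretch here. They cover 4145 of its 4662 bases, and the copies of mt-Nd4l and mt-Nd4 sit at an offset between the chromosomes that differs from that of the other 5. Just under that threshold were Gm13341 at 48.0% and Gm13340 at 45.2% on chromosome 2. Gm28661 matched 681 bases of mt-Co2, Gm10925 matched 678 bases of mt-Atp6, Gm28437 matched 783 bases of mt-Co3, Gm10222 matched 294 bases of mt-Nd4l and Gm28439 matched 876 bases of mt-Nd4, each with 0 substitutions. The copies of mt-Co1 and mt-Nd3 carried the only differences, 6 in the 492 bases of Gm29216 and 1 in the 345 bases of Gm28438. Gm28439 covers 63.6% of mt-Nd4 and Gm29216 covers 31.8% of mt-Co1, whereas the copies of the other 5 genes cover 99.0% to 99.9% of them. mt-Atp8 lies inside the stretch without an annotated copy, and the nuclear sequence opposite it was not read here.

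The starts of the 2 imperfect matches are shown because they hold every base that separates an annotated copy of the copied stretch from its gene. Each is printed 5′ to 3′ on the coding strand from the transcripts of GENCODE M21 (GRCm38), with the differing bases in capitals. The fragments are chrM:6381-6430 on the plus strand, chr1:24616148-24616197 on the minus strand, chrM:9459-9508 on the plus strand and chr1:24613070-24613119 on the minus strand, in the order printed.
mt-Co1: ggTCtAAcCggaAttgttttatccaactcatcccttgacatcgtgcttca
Gm29216: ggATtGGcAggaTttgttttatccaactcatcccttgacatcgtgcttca
mt-Nd3: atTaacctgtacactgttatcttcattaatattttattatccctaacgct
Gm28438: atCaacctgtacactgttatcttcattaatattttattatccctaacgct

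Counted from 1 at the first base of each mitochondrial gene, with the mitochondrial base first, the substitutions were T1056A, C1057T, A1059G, A1060G, C1062A and A1066T in the copy of mt-Co1 and T3C in the copy of mt-Nd3. The 6 in mt-Co1 fall within the first bases of the copied stretch. The other 5 copies have the letters of the mitochondrial gene over their whole compared length, so a read from inside them fits both places equally well. The treatment of reads with several matches before deposition is not given in the sources used here. For mt-Co2, mt-Atp6, mt-Co3, mt-Nd3 and mt-Nd4l both the level and the genotype difference are therefore uncertain. The same holds for mt-Nd4 and mt-Co1 over at least the part that a copy covers, 63.6% and 31.8% of the gene. The share of 31-base words also found in other transcripts was 98.1% to 100% in mt-Co2, mt-Atp6, mt-Co3, mt-Nd3 and mt-Nd4l. In mt-Co1 it was 63.9%, and 39.8% with words of 75 bases, more than the 31.8% of the gene that its copy covers. The share was 62.8% in mt-Nd4, and at most 16.8% in the 6 other protein genes, mt-Atp8 included. Unannotated nuclear sequence opposite mt-Atp8 was not read, so its low share does not show that its reads fit no other place.

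The 6 protein genes inside the stretch were also those with the more negative genotype differences. All 6 had an unadjusted p under 0.05 in the edgeR test, with a median log2 fold change of −0.98, and 5 of the 6 had no overlap between the genotypes. Of all tested genes, 5.23% were lower at that p, and 7.99% had all knock-in values below all wild-type values. The other 7 protein genes had a median of −0.05, and 1 of the 7, mt-Nd6, had an unadjusted p under 0.05 and no overlap. In complex V, mt-Atp6, which forms the proton channel of the ATP synthase with the ring of c subunits, had 459, 395 and 513 counts in knock-in hearts and 1181, 1146 and 696 counts in wild-type hearts. Every knock-in heart lay below every wild-type heart, and wild-type replicate 3 was the lowest of its group. mt-Atp6 fell to 30.3 ± 4.49 CPM in knock-in hearts, against 69.3 ± 18.4 CPM in wild-type hearts (SD, n = 3 each; log2 fold change −1.20 ± 0.20 SE, edgeR adjusted p = 0.0456). Its call was lost without knock-in replicate 1 or 3 and without wild-type replicate 1 or 2, with edgeR adjusted p between 0.128 and 0.223.

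mt-Atp8, a small subunit of the same enzyme whose gene overlaps the start of mt-Atp6, had 62, 117 and 97 counts in knock-in hearts and 145, 195 and 202 counts in wild-type hearts. The groups did not overlap, and the difference was not called (log2 fold change −1.03 ± 0.23 SE, edgeR adjusted p = 0.145). Because no copy of mt-Atp8 is annotated, its value cannot be set beside one.

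In complex IV, mt-Co3, a core subunit without metal centres, had 69.6, 52.8 and 64.4 CPM in knock-in hearts and 131, 138 and 88.8 CPM in wild-type hearts. The groups were separate and wild-type replicate 3 was again the lowest of its group (log2 fold change −0.94 ± 0.17 SE, edgeR adjusted p = 0.0667). mt-Co2, the subunit that takes electrons from cytochrome c, had 67.4, 47.2 and 62.2 CPM in knock-in hearts and 100.4, 101 and 66.7 CPM in wild-type hearts. Here wild-type replicate 3 lay just below knock-in replicate 1, so the groups overlapped (log2 fold change −0.60 ± 0.18 SE, edgeR adjusted p = 0.268). The third subunit, mt-Co1, with its 3′ part in the stretch, had 110530.0, 122092 and 116089 CPM in knock-in hearts and 114391, 112469.5 and 133362 CPM in wild-type hearts. Its groups overlapped and its difference was smaller than its SE (log2 fold change −0.05 ± 0.10 SE, edgeR adjusted p = 0.934).

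In complex I, mt-Nd3 had 55, 65 and 70 counts in knock-in hearts and 133, 161 and 92 counts in wild-type hearts. mt-Nd4l, which overlaps the start of mt-Nd4, had 77, 84 and 64 counts in knock-in hearts and 152, 130 and 109 counts in wild-type hearts. Both are small membrane subunits, both had separate groups, and neither was called (log2 fold changes −1.07 ± 0.23 and −0.85 ± 0.18 SE, edgeR adjusted p = 0.104 for mt-Nd3 and 0.111 for mt-Nd4l). The complex I genes outside or only partly inside the stretch differed less. mt-Nd1 averaged 24743 ± 2214 CPM in knock-in hearts and 29254 ± 4916 CPM in wild-type hearts (SD, n = 3 each). mt-Nd2 averaged 15604 ± 2797 CPM in knock-in hearts and 19513 ± 4378 CPM in wild-type hearts (SD, n = 3 each). Both genes encode membrane subunits. In both the groups overlapped and wild-type replicate 3 was the highest of all hearts. Without that heart the log2 fold changes were −0.10 for mt-Nd1 and −0.12 for mt-Nd2, against −0.24 ± 0.12 and −0.32 ± 0.17 SE with it (edgeR adjusted p = 0.570 and 0.587 with all hearts).

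The large proton-pumping subunits mt-Nd4 and mt-Nd5 averaged 18472 ± 2094 and 15130.4 ± 1902 CPM in knock-in hearts, and 17669 ± 1662 and 14320.1 ± 2951 CPM in wild-type hearts (SD, n = 3 each). mt-Cytb averaged 47829 ± 3249.7 CPM in knock-in hearts and 47055 ± 4017 CPM in wild-type hearts (SD, n = 3 each). These 3 genes had the only positive log2 fold changes among tested members, 0.06 ± 0.11, 0.08 ± 0.15 and 0.02 ± 0.10 SE, none of them called and all with overlapping groups. Their sign turned negative when single hearts were left out, at −0.03 or nearer to 0.

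mt-Nd6, which is transcribed from the minus strand and overlaps the end of mt-Nd5, had 275, 295 and 265 CPM in knock-in hearts and 305, 425 and 379 CPM in wild-type hearts. The knock-in hearts all lay below the wild-type hearts, and the difference was not called (log2 fold change −0.41 ± 0.12 SE, edgeR adjusted p = 0.255). The strand setting of the counting is not given in the sources used here. Without it, reads of the 9 minus-strand genes cannot be told apart from plus-strand transcripts that run across them.

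Counts were also recorded for the nuclear copies. Whether these reads came from the copies or from the mitochondrial genes was not tested. For the 5 genes that are covered almost whole, the gene had 0.0458 to 4.37 counts per count of its copy in the same heart. Counts at the 7 copies ran from 66 to 1989 per heart, and all 7 were tested. All 7 had negative log2 fold changes with a median of −0.47, and 0 were called (edgeR adjusted p of at least 0.212). At an unadjusted p under 0.05 in edgeR, 4 of the 7 were lower, beside 5.23% of all tested genes. Just under the threshold for a copy, Gm13341 had a log2 fold change of −0.94 ± 0.24 SE with separate groups (edgeR adjusted p = 0.175). Gm13340 had −0.19 ± 0.12 SE with overlapping groups (edgeR adjusted p = 0.675). Gm10925, the copy of mt-Atp6, had 277, 219 and 287 counts in knock-in hearts and 380, 357 and 336 counts in wild-type hearts (log2 fold change −0.51 ± 0.14 SE, edgeR adjusted p = 0.212). Its groups were separate, as for mt-Atp6. Gm28438, the copy of mt-Nd3, had 273, 1419 and 374 counts in knock-in hearts and 765, 829 and 1989 counts in wild-type hearts. Here knock-in replicate 2 and wild-type replicate 3 were each the highest of their group, the groups overlapped, and the copy had more counts than the gene in every heart (log2 fold change −0.85 ± 0.76 SE, edgeR adjusted p = 0.8005).

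**Figure D3:**
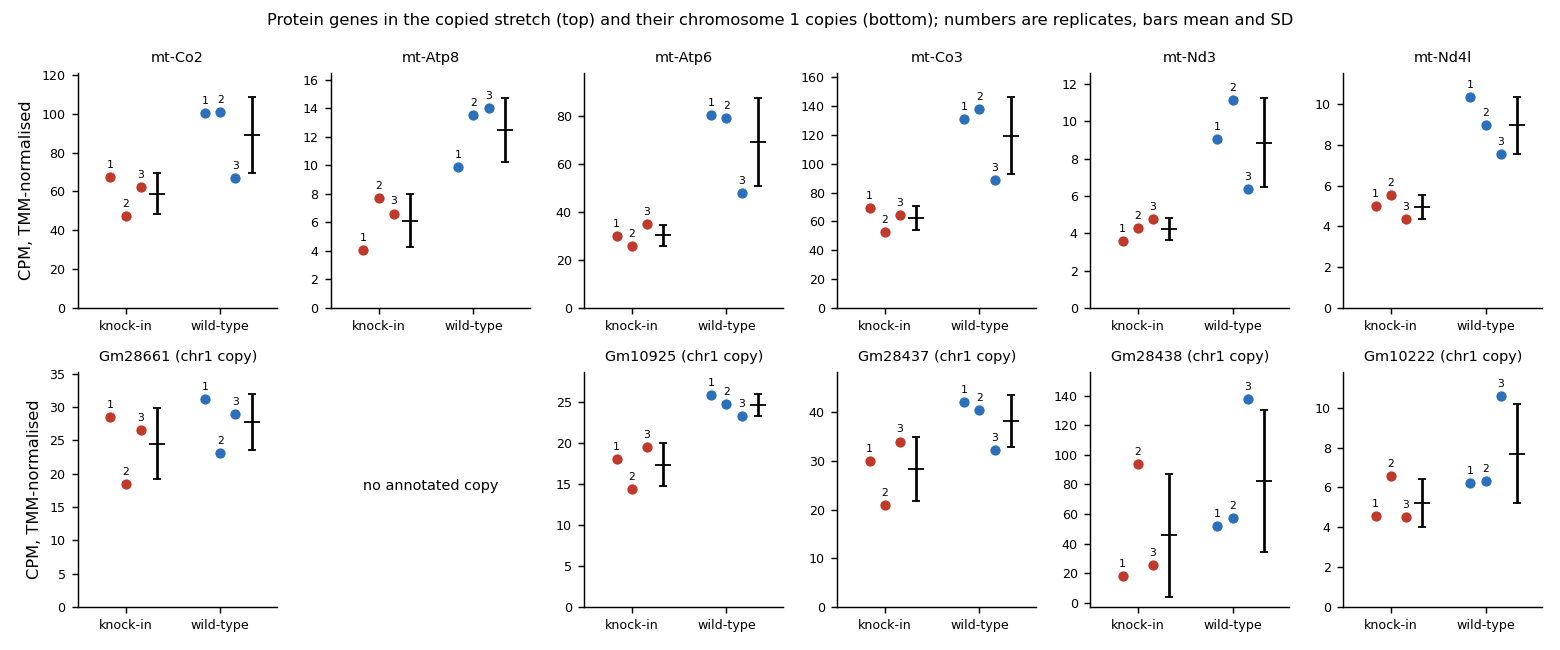
TMM-normalised CPM of the 6 protein genes inside the copied stretch (top) and of their annotated copies on chromosome 1 (bottom) in each heart, with the replicate number at each point and bars for the mean and SD of 3 hearts. Knock-in hearts lie below wild-type hearts in 5 of the 6 genes, wild-type replicate 3 is the lowest of its group in 5 of the 6, and of the 5 copies drawn only Gm10925 keeps the genotypes apart.

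Counts of a gene divided by those of its copy in the same heart need no scaling between libraries. For mt-Atp6 over Gm10925 the ratio was 1.66, 1.80 and 1.79 in knock-in hearts and 3.11, 3.21 and 2.07 in wild-type hearts. For mt-Co3 over Gm28437 it was 2.32, 2.51 and 1.89 in knock-in hearts and 3.12, 3.41 and 2.76 in wild-type hearts. Both ratios kept the genotypes apart, with knock-in lower, so that counts at the gene and at its copy differed between genotypes by unequal factors. For mt-Nd4 over Gm28439 the ratio was 4209.8, 3355 and 3159 in knock-in hearts and 2674, 2369 and 2325 in wild-type hearts, with knock-in higher. Gm28439 covers 63.6% of mt-Nd4, so this ratio also holds counts from the part of the gene without a copy. The ratios of the other 4 pairs overlapped. These 7 ratios were compared, and 3 against 3 hearts cannot give an exact two-sided permutation p below 0.1, so none could pass a threshold of 0.05. When the counts of each copy were added to its gene, mt-Atp6 had a log2 fold change of −0.98 with an edgeR adjusted p of 0.0429, mt-Co3 −0.80, mt-Co2 −0.49, mt-Nd4l −0.71 and mt-Nd3 −0.87 (edgeR adjusted p = 0.761 for mt-Nd3, whose copy holds 83.2% to 95.6% of the pooled counts).

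Of the 22 transfer RNA genes, 11 had enough counts to be tested. These were the genes for phenylalanine (mt-Tf), valine (mt-Tv), leucine (mt-Tl1), isoleucine (mt-Ti), glutamine (mt-Tq), methionine (mt-Tm), tryptophan (mt-Tw), tyrosine (mt-Ty), glutamate (mt-Te), threonine (mt-Tt) and proline (mt-Tp). All 11 had negative log2 fold changes with a median of −0.85, beside −0.41 over the 13 protein genes. All 11 lie outside the copied stretch, and the 5 protein genes wholly outside it had a median of −0.24. In 4 of the 11 the knock-in hearts all lay below the wild-type hearts, beside 7.99% of all tested genes, and mt-Tp was called. RNA was purified on silica columns, which hold back short RNA poorly, and mature transfer RNA is short and heavily modified. Whether the counts came from mature transfer RNA, from precursors or from neighbouring messages was not tested.

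The sequences of the 4 transfer RNAs with separate groups are shown, together with those of mt-Tv and mt-Tf, in which knock-in replicate 2 stood apart. They are printed 5′ to 3′ on the coding strand from GENCODE M21 transcripts (GRCm38), as DNA, with the anticodon in capitals. mt-Tp lies at chrM:15356-15422 on the minus strand, mt-Tt at chrM:15289-15355 on the plus strand, mt-Tq at chrM:3772-3842 on the minus strand, mt-Tl1 at chrM:2676-2750, mt-Tv at chrM:1025-1093 and mt-Tf at chrM:1-68, the last 3 on the plus strand. None of the 6 shared a 31-base word with an annotated transcript of a nuclear gene.
mt-Tp: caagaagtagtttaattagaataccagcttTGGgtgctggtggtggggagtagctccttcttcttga
mt-Tt: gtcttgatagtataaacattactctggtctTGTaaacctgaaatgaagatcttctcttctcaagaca
mt-Tq: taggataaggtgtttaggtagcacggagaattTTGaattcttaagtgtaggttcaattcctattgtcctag
mt-Tl1: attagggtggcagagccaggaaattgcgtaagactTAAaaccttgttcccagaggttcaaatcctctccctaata
mt-Tv: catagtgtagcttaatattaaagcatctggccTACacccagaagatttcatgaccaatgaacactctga
mt-Tf: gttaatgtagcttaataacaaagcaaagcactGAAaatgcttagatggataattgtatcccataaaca

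mt-Tp and mt-Tt lie side by side on opposite strands at the end of the annotated genes, before the control region. mt-Tp had 1.63, 1.98 and 1.64 CPM in knock-in hearts and 4.50, 4.22 and 6.16 CPM in wild-type hearts. The groups were well apart, and the 24 to 30 counts per knock-in library and 61 to 89 per wild-type library stood above the floor. mt-Tp fell to 1.75 ± 0.199 CPM in knock-in hearts, against 4.96 ± 1.05 CPM in wild-type hearts (SD, n = 3 each; log2 fold change −1.50 ± 0.24 SE, edgeR adjusted p = 0.0399). Leaving out knock-in replicate 2 kept this call, and leaving out any 1 of the other 5 hearts ended it, with edgeR adjusted p between 0.0848 and 0.209 and log2 fold changes between −1.60 and −1.32. mt-Tt had 1.37, 8.50 and 3.14 CPM in knock-in hearts and 17.1, 14.8 and 25.3 CPM in wild-type hearts. This was the log2 fold change farthest from 0 among tested members, with separate groups, but the knock-in hearts varied widely and it was not called (log2 fold change −2.13 ± 0.58 SE, edgeR adjusted p = 0.300).

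mt-Tq, on the minus strand between mt-Ti and mt-Tm, had 7, 7 and 14 counts in knock-in hearts and 30, 21 and 43 counts in wild-type hearts. The groups were separate at these low counts (log2 fold change −1.78 ± 0.40 SE, edgeR adjusted p = 0.139). mt-Tl1, the leucine transfer RNA between the large ribosomal RNA gene and mt-Nd1, was the most abundant transfer RNA, with 147, 218 and 138 CPM in knock-in hearts and 251, 221 and 283 CPM in wild-type hearts. Knock-in replicate 2 came close to wild-type replicate 2 without passing it (log2 fold change −0.59 ± 0.17 SE, edgeR adjusted p = 0.255).

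The 7 tested transfer RNAs on the plus strand shared the highest heart of each genotype. In each of the 7, knock-in replicate 2 was the highest knock-in heart and wild-type replicate 3 the highest of all 6. mt-Tv had 63, 370 and 79 counts in knock-in hearts and 302, 286 and 555 counts in wild-type hearts. mt-Tf had 53, 199 and 88 counts in knock-in hearts and 191, 195 and 348 counts in wild-type hearts. In both genes knock-in replicate 2 lay among the wild-type hearts while the other 2 knock-in hearts lay below them, and neither was called (log2 fold changes −1.22 ± 0.75 for mt-Tv and −1.16 ± 0.50 SE for mt-Tf, edgeR adjusted p = 0.688 and 0.524). mt-Ti, mt-Tw and mt-Tm also overlapped, with log2 fold changes of −0.75 ± 0.41, −0.72 ± 0.51 and −0.35 ± 0.22 SE. Gm28438, the nuclear copy of mt-Nd3, had the same 2 hearts on top, whereas 5 of the 6 protein genes inside the copied stretch had wild-type replicate 3 as the lowest wild-type heart. The same 2 hearts also had the highest mitochondrial share of counts of their genotype.

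**Figure D4:**
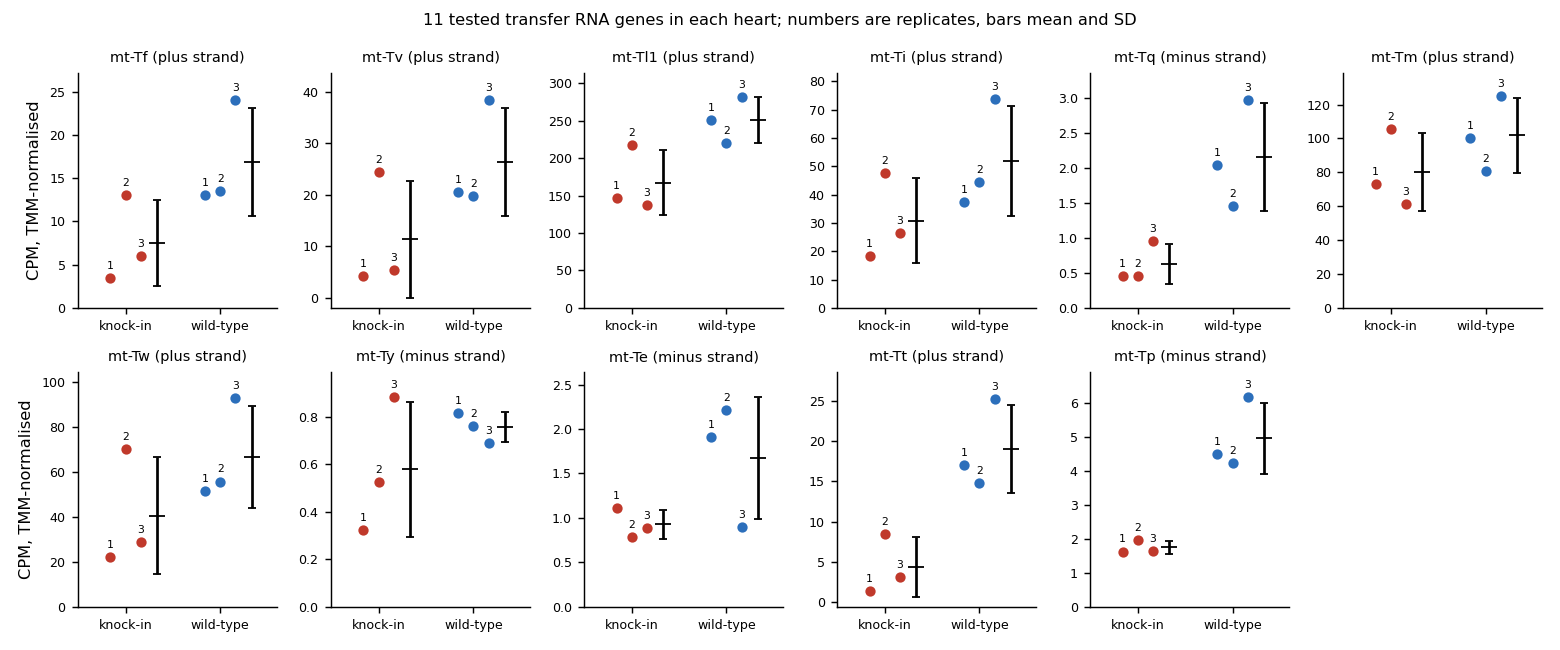
TMM-normalised CPM of the 11 tested mitochondrial transfer RNA genes in each heart, with the replicate number at each point and bars for the mean and SD of 3 hearts per genotype. Knock-in replicate 2 and wild-type replicate 3 are the highest hearts of their genotype in all 7 plus-strand genes, and the genotypes do not overlap in mt-Tl1, mt-Tq, mt-Tt and mt-Tp.

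For each of the 7 plus-strand transfer RNAs, leaving out knock-in replicate 2 moved the log2 fold change farther than leaving out any other heart. Without it the log2 fold change was −2.46 for mt-Tv (edgeR adjusted p = 0.0302), −3.08 for mt-Tt (edgeR adjusted p = 0.00494) and −0.81 for mt-Tl1 (edgeR adjusted p = 0.00559), and all 3 were called. The median over the 11 tested transfer RNAs was then −1.38, while leaving out any 1 of the other 5 hearts kept it at −0.81 or lower. The same step also raised the number of called genes over the whole table to 174, against 38 with all hearts.

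**Figure D5:**
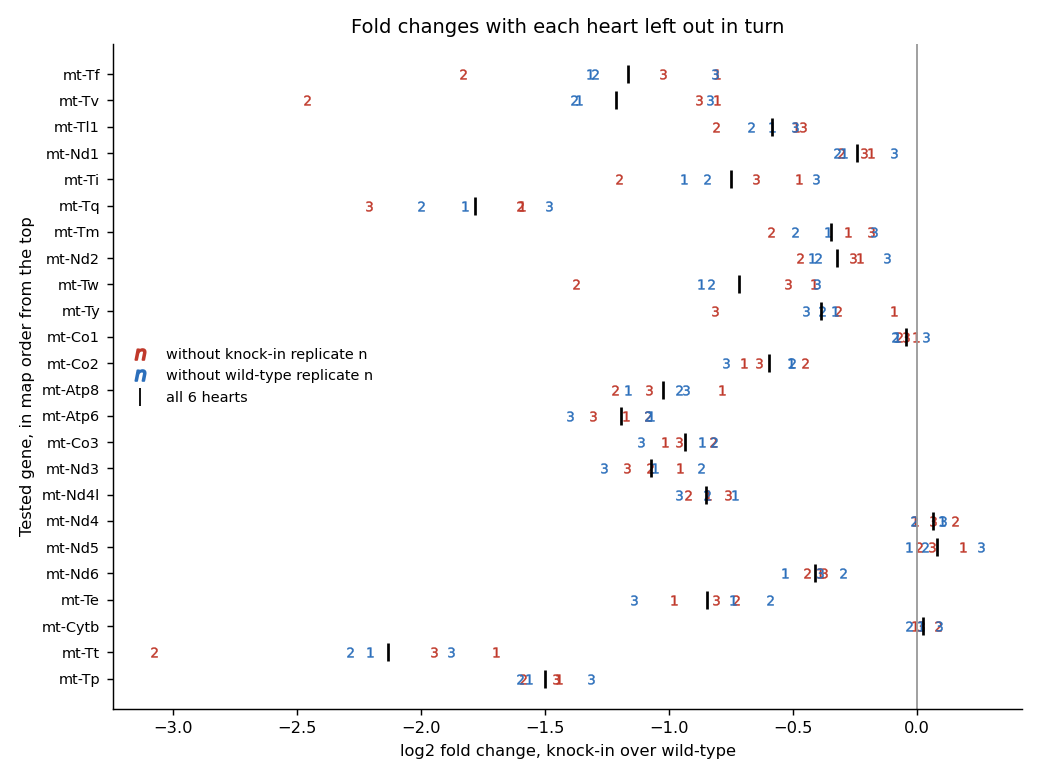
Log2 fold change (knock-in over wild-type) of each tested mitochondrial gene with all 6 hearts (black bars) and with 1 heart left out (red numerals, the knock-in replicate left out; blue numerals, the wild-type replicate left out). The red 2 lies far to the left in mt-Tf, mt-Tv, mt-Ti, mt-Tw and mt-Tt, reaching −3.08 in mt-Tt, and 20 of the 24 genes keep their sign throughout.

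On the minus strand, mt-Te, next to mt-Nd6, had 17, 12 and 13 counts in knock-in hearts and 28, 32 and 13 counts in wild-type hearts, and mt-Ty had 5, 8 and 13 counts in knock-in hearts and 12, 11 and 10 counts in wild-type hearts. Both overlapped and neither was called (log2 fold changes −0.85 ± 0.38 and −0.39 ± 0.43 SE, edgeR adjusted p = 0.488 for mt-Te and 0.846 for mt-Ty). Over the 5 tested genes of the minus strand, mt-Nd6 included, the median log2 fold change was −0.85, and over the 19 tested genes of the plus strand −0.72. Summed over all 9 of its genes, the minus strand had 269.5 to 299.6 CPM in knock-in hearts and 315 to 434 CPM in wild-type hearts, most of it from mt-Nd6.

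The 11 untested transfer RNA genes had at most 25 counts over all 6 libraries together. No count at all was recorded for mt-Td, mt-Tk, mt-Tg and mt-Ts2, which allows up to 3 counts per library, or 0.192 to 0.212 CPM. All 5 transfer RNA genes inside the copied stretch were among the untested, with at most 3 counts in total each. mt-Th, the histidine transfer RNA, was the 1 gene with knock-in values all above wild-type values, at 5, 1 and 3 counts in knock-in hearts and 0 in every wild-type heart, close to the floor of detection. mt-Ts1, a serine transfer RNA, had 1, 0 and 2 counts in knock-in hearts and 0 in every wild-type heart. mt-Ta, mt-Tn, mt-Tc, mt-Tl2 and mt-Tr had 0 to 7 counts per heart.

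Nuclear genes that maintain, transcribe, process and translate mitochondrial DNA and RNA were set beside the members in 5 lists. Of 120 listed genes, 116 were tested, 76 had negative log2 fold changes, where 51.7% of all tested genes had, and 0 were called, where 0.297% of all tested genes were. At an unadjusted p under 0.05 in edgeR, 7 of the 116 were lower and 0 higher, beside 5.23% of all tested genes lower and 4.74% higher. The lower count was thus near that of all genes, whereas the higher count and the signs leaned towards lower values in knock-in hearts. This lean was not tested. The median log2 fold change of the 116 was −0.08. Among 25 tested genes for transcription and maintenance the smallest p belonged to Polg, the catalytic subunit of the mitochondrial DNA polymerase, with 50.2, 47.1 and 45.7 CPM in knock-in hearts and 58.8, 60.5 and 60.4 CPM in wild-type hearts (log2 fold change −0.33 ± 0.10 SE, edgeR adjusted p = 0.247). Among 22 genes for aminoacyl-tRNA synthetases and the amidotransferase it belonged to Aars2, which charges the alanine transfer RNA, with 23.0, 21.1 and 20.2 CPM in knock-in hearts and 30.5, 30.3 and 28.3 CPM in wild-type hearts (log2 fold change −0.47 ± 0.11 SE, edgeR adjusted p = 0.150). Both genes had separate groups and neither was called. In the lists for RNA processing and decay (25 tested, 17 negative), RNA modification (28 tested, 19 negative) and translation (17 tested, 10 negative) the smallest p belonged to Fastkd1, Mrm1 and Letm1, with edgeR adjusted p of 0.468, 0.508 and 0.515. Median log2 fold changes of the 5 lists lay between −0.11 and −0.03.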

How the data were processed

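Read counts per gene were deposited by the authors as 1 table of whole-number counts with no normalization, 1 column per heart. Per the submitters' processing notes, the build was GRCm38.p6, and featureCounts, Subread 1.5.2, STAR and DESeq2 were among the tools, their roles not stated. Annotation release, strand setting, library selection and handling of multiply matching reads: each is not given in the sources used here. Gene names, positions and transcript sequences came from GENCODE M21 (GRCm38), which held 49056 of the 49315 identifiers.

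All genes were tested together with edgeR 4.0.16 under R 4.3.3, using TMM scaling, the filterByExpr filter on genotype, robust glmQLFit and glmQLFTest, knock-in over wild-type, 3 against 3 libraries, no covariate, with Benjamini-Hochberg adjustment over 12777 tested genes. CPM are TMM-normalised, and each SE equals the absolute log2 fold change over the root of F. Chi-square per degree of freedom was 6.70 to 25.1 between replicate pairs, above sampling noise, so each library is 1 replicate. Reads carry no molecular identifiers, so floors cover counting error only. Functions were tested on simulated data.

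The mitochondrial chromosome as the subject, its division by the copied stretch, and the gene lists were chosen with earlier results of these data known; which genes are members follows from position alone. All members are named, and from each nuclear list the called genes or else the 1 with the smallest p. Shared sequence was measured in 31-base words on either strand of annotated transcripts, so unannotated nuclear sequence was not read. Anticodons were located as the middle of a 7-base loop closed by at least 4 of 5 pairs. Alternatives were RLE and library-total scaling, scaling by nuclear genes, shares of mitochondrial counts, DESeq2 1.42.0, limma-voom with limma 3.58.1, no low-count filter, a mean CPM of 1 or more, no robust estimation, each library left out, an adjusted p under 0.1, longer words and, chosen after seeing the data, copy counts added to their genes.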

Additional observations from a re-analysis of the deposited data

How the results depend on the processing

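Against 2 called members, both lower in knock-in hearts, library totals alone gave 1 (mt-Tp), shares of mitochondrial counts 1 (mt-Tp), no filter 10, DESeq2 7 and an adjusted p under 0.1 gave 3. limma-voom called 0, with 15 of 24 at an unadjusted p under 0.05, all lower. Leaving out single hearts gave 0 to 9 calls, and in the 4 fits with 0 calls 11 or 12 of 24 had an unadjusted p under 0.05 in edgeR, all lower. RLE scaling, scaling by nuclear genes, a mean CPM of 1 or more, no robust estimation and copy counts added to their genes each gave 2. Every call in these alternatives was lower in knock-in hearts. Over all genes no filter called 317 genes, DESeq2 131 and the fits with single hearts left out 5 to 174, against 38. Of 24 tested members, 20 kept their sign in every alternative run. The log2 fold change of mt-Co1 was 0.012 as a share of mitochondrial counts, and with single hearts left out it ran from −0.091 to 0.035. With single hearts left out, that of mt-Nd4 ran from −0.012 to 0.15, that of mt-Nd5 from −0.033 to 0.26 and that of mt-Cytb from −0.033 to 0.089. mt-Cytb had −0.015 with library totals alone. The cause was not tested. The median log2 fold change with single hearts left out ran from −1.38 to −0.81 for transfer RNA genes, from −1.04 to −0.86 for protein genes inside the copied stretch and from −0.09 to 0.04 for the other protein genes. The mitochondrial share of counts differed by −1.68 percentage points with all hearts and by −2.59 to −0.31 points with single hearts left out. The median share of words found in other transcripts was 99.2% inside the stretch, and 99.1% at 75 bases. For the other protein genes it was 13.5%, with 7.61% at 50 bases and 1.66% at 75. The share of counts without ribosomal RNA genes was not run, since those genes were not analysed here. No paired analysis was possible because the replicate numbers only name samples in accession order. The filter removed 11 members with at most 25 counts over all libraries. Without it 7 of these were tested and 0 called (edgeR adjusted p of at least 0.191, with 1 at an unadjusted p under 0.05), and the other 4 had no counts.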
